A study of Rattus norvegicus with 24 samples.

Results

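Genes whose symbol begins with Kcn, the potassium channel family, were followed in the hearts of 24 male Wistar Kyoto rats. The rats were 12 to 14 weeks old when obtained, before the weekly instillations, and were older when the hearts were taken. Each heart was read on an Affymetrix Rat 230A array of its own, and there were 6 groups of 4. The rats were instilled through the trachea once per week, at 1 mL/kg, with MSH (Mount St. Helens ash, particles without water-soluble zinc), PM-HD (oil combustion particles at the high dose, labelled with 14.5 µg/mg zinc and 3.0 µg/mg nickel), PM-LD (the same particles at the low dose, labelled with 7.25 µg/mg zinc and 1.5 µg/mg nickel), PM-L (the filtered fraction of PM that saline leaches out), zinc sulfate, or saline alone. The zinc sulfate samples are labelled with 14.5 µg/mL, the treatment protocol in the labels gives a different concentration, and which was used is not settled here. MSH, PM-HD, zinc sulfate, and saline arrays came from rats treated for 8 weeks, with 4.6 mg/kg of solids per week for MSH and PM-HD, whereas no source used here gives the number of weeks for PM-LD and PM-L arrays. All 6 groups shared the strain, the sex, the tracheal route, and halothane anesthesia, and RNA came from the left ventricle plus septum, so every value is a mean over all cell types of that tissue. In such tissue, fewer cells of a type and less RNA per cell cannot be told apart.

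The members were all probe sets with 1 gene symbol beginning with Kcn. They were 108 probe sets for 73 of the 10411 genes on the array with such a probe set, and each gene with several was read through the brightest of them, that is, the one with the highest mean signal over the 24 arrays. A gene was taken as expressed in the heart at a mean signal of 100 or more, which 33 of the 73 reached and 40 did not. Over all genes, 8119 of 10411 reached it. Signals are on the linear scale of the scanner software, in arbitrary units, and depend on the probes, so they were compared between rats and not between genes. Kcnh5 (mean signal 103) and Kcnip3 (100.3) lay just inside the limit. Kcnj15 (98.9) and Kcnj2 (94.1), the gene of the main inward rectifier of the ventricle, lay just outside it.

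Potassium channels carry the currents that end the cardiac action potential and hold the resting potential. Voltage-gated (Kv) channels open on depolarization. Those of Kcnd2 and Kcnd3, with the accessory subunit of Kcnip2, give the transient outward current of early repolarization, and those of Kcna5, Kcnq1, and Kcnh2 give delayed rectifier currents. Inward rectifiers of Kcnj2, Kcnj12, and Kcnj4 hold the resting potential, Kcnj11 and Kcnj8 form the pores of channels closed by ATP, and Kcnj3 and Kcnj5 form the channel that acetylcholine opens in atrial and nodal cells. Two-pore channels such as that of Kcnk3 carry background current, and calcium-activated channels such as that of Kcnn3 couple calcium to potassium efflux.

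The promoters of 3 genes are shown. Kcnip2 and Kcng2 had the highest signals of the family and moved together from rat to rat, and both also followed a measure of RNA quality described below. Kcnh4 was the only expressed member with an unadjusted p under 0.05 in an F test over the 6 groups. Its adjusted p in that test was 0.881. Each is 250 bases before to 50 after the gene start in RefSeq (assembly GRCr8, minus strand, 5′ to 3′), at chr1:254613849-254614148 for Kcnip2, chr18:76083639-76083938 for Kcng2, and chr10:86188427-86188726 for Kcnh4. Capitals mark the GC box GGGCGG and the E-box CACGTG on either strand.
Kcnip2: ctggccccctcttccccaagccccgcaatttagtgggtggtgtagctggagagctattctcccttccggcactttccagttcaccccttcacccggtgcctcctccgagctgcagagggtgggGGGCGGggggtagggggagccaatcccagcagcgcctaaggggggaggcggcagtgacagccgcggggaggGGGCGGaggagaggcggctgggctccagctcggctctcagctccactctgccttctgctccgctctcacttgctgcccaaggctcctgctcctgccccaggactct
Kcng2: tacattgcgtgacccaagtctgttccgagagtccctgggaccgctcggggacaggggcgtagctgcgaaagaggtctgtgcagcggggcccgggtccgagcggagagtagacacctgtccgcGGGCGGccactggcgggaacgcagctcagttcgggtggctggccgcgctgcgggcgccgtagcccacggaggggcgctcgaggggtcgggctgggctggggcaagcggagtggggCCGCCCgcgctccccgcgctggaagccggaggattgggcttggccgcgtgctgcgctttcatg
Kcnh4: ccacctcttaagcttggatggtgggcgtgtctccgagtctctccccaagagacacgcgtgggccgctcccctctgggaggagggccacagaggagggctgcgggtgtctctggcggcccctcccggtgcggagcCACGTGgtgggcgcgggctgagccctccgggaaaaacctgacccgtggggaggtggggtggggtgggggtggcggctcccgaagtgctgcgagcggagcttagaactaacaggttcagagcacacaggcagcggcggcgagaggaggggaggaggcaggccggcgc
Kcnip2 and Kcng2 each held 2 GC boxes and no E-box, and Kcnh4 held 1 E-box and no GC box. None of these 3 windows held the core of the metal response element, TGCACNC or TGCGCNC, the letters recognised by the zinc-sensing factor MTF1. RefSeq promoters were matched for 50 of the 73 genes. Of these 50, 18 (36.0%) held the metal response core on either strand in any of their promoters. Among 33469 single promoters of the same length, 24.2% held it. A GC box was held by 29 of the 50 genes (58.0%) and by 33.1% of the promoters. An E-box was held by 2 genes (4.0%) and by 6.42% of the promoters. Because one share counts genes and the other single promoters, they are given side by side and were not compared. The expressed members that held the metal response core were Kcnab1, Kcnc4, Kcng3, Kcnh1, Kcnk2, and Kcnt1. These matches describe letters and are not sites of binding.

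RNA quality differed between the rats of every group. The Gapdh control is read near both ends of its RNA, and the 3′ over 5′ signal, called the Gapdh ratio below, rises as RNA is shortened from its 5′ end. It ran from 1.11 to 5.62 over the 24 arrays, and 9 arrays were above 3. The median ratio was 2.76 in MSH, 3.03 in PM-HD, 1.56 in PM-LD, 2.33 in PM-L, 1.50 in zinc sulfate, and 1.87 in saline hearts, with overlapping ranges. Zinc sulfate hearts had ratios of 1.49, 1.52, 5.57 and 1.42, and MSH hearts 3.31, 2.36, 2.02 and 3.15. The ranges of these groups overlapped only through zinc sulfate replicate 3. Ventricular myocyte markers were bright in every heart (6 of 6 measured above 100), with summed signals of 149089 or more in exposed and 124089 or more in saline hearts. The 4 atrial markers (Myl7, Myl4, Sln, Nppa) averaged 7.81 to 13.15 on the log2 scale, above 11 in 6 hearts, so that atrial marker RNA varied between rats in tissue described as left ventricle plus septum.

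The 10 brightest members were Kcnip2, Kcng2 (a silent Kv subunit), Kcnj11, Kcnk3, Kcnj8, Kcnj5, Kcnh3 (a channel known mainly from brain), Kcnq1, Kcna5, and Kcnd2. Mean signals over the 24 rats were 5719 for Kcnip2, 1817 for Kcng2, 1323 for Kcnj11, 1063 for Kcnk3, 785 for Kcnj8. Mean signals were 447 for Kcnj5, 434 for Kcnh3, 432 for Kcnq1, 397 for Kcna5, and 372 for Kcnd2. Of the 33 expressed genes, 16 lay above the median signal of all probe sets on the array and 17 below it. By family, 13 of 23 Kv alpha genes, 3 of 7 silent Kv genes, 4 of 12 accessory genes, 6 of 15 inward rectifiers, 5 of 11 two-pore genes, and 2 of 5 calcium- or sodium-activated genes were expressed. Means of accessory genes ran from 9.63 for Kcnip1 to 5719 for Kcnip2. Kcne1, the partner of Kcnq1 in the slow delayed rectifier, averaged 59.4, and Kcnj12 averaged 71.8, both under the limit.

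Between rats of one group, the log2 signal of an expressed member had a median standard deviation of 0.392, and that of a member below the limit 0.657. Over all genes of the array the same medians were 0.324 and 0.600. The standard error of a log2 fold change was correspondingly 0.253 for the median expressed member and 0.399 for the median member below the limit in the comparisons among the 4 groups of 8 weeks, and 0.271 and 0.438 in the comparisons of PM-LD and PM-L.

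**Figure D1:**
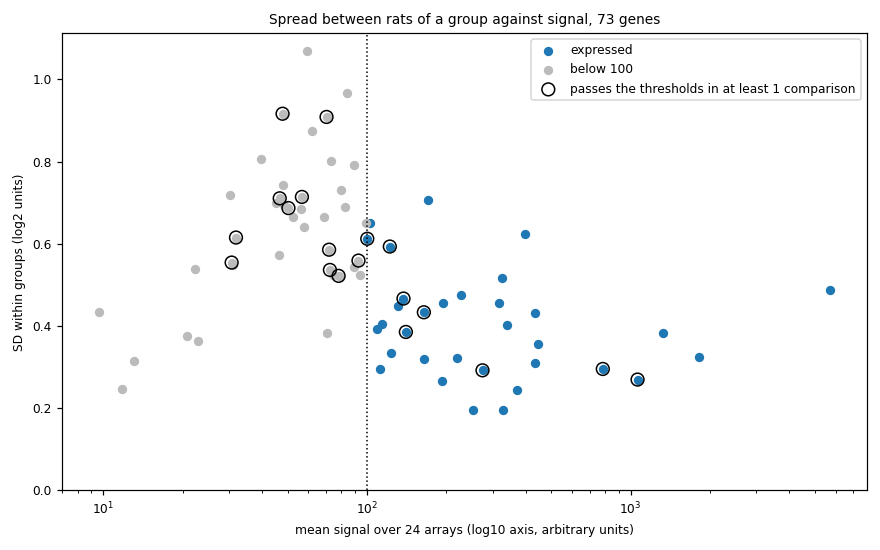
Each point is 1 of the 73 potassium channel genes, with the mean signal over 24 arrays on the x axis (log10 axis, arbitrary units) and the standard deviation between rats of a group on the y axis (log2 units). Genes left of the dotted limit of 100 (gray) had a median of 0.657 and genes right of it (blue) 0.392, and circles mark the genes that passed the thresholds of p and fold in at least 1 comparison.

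There were 6 comparisons: each exposed group against saline, and zinc sulfate against MSH. A gene passed the thresholds at an unadjusted p under 0.05 (limma) with a log2 fold change above 0.32 or below −0.42. Below, "rose" and "fell" refer to these thresholds. After Benjamini-Hochberg adjustment over all 15866 probe sets tested, 0 members were under 0.05 in any comparison, and the numbers at an unadjusted p under 0.05 are the counts given for each comparison. Across the 6 comparisons, 19 of the 73 members passed at least once and 54 in none, where 16.3% of all genes passed at least once. Among the expressed members, 8 of 33 passed at least once, where 13.7% of all expressed genes did. Kcnip3, among these 8, reached the limit only through the PM-HD hearts in which it passed (mean of 86.2 without them). Nothing is therefore read from that count. All counts of members here rest on the brightest probe set of each gene. Shares of all genes were counted in the main fits only, so a count under another setting, or with arrays left out, has no share beside it. All 5 comparisons with saline used the same 4 saline arrays, and both zinc sulfate comparisons the same zinc sulfate arrays, so their values are given side by side and were not compared. The exact permutation test over the 70 arrangements of 4 against 4 arrays (two-sided) cannot go below 0.0286. It used normalized log2 values, so that groups which do not overlap in signal can still give a p above that minimum.

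**Figure D2:**
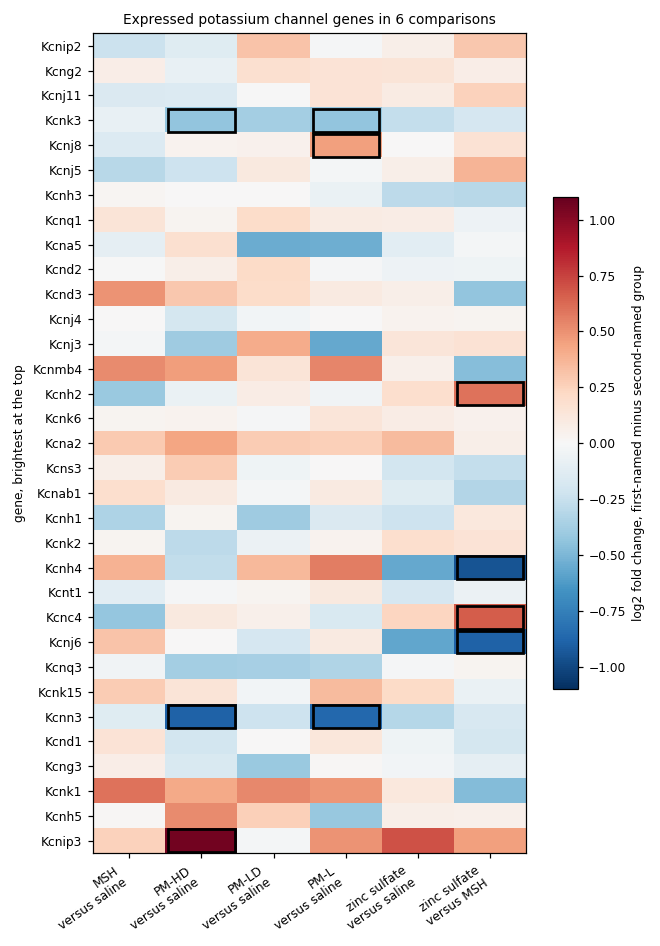
Rows are the 33 expressed potassium channel genes from the brightest down, columns are the 6 comparisons, and color is the log2 fold change (red higher, blue lower in the group named first). Black frames mark the 10 gene and comparison pairs that passed the thresholds: 0 for MSH, 3 for PM-HD, 0 for PM-LD, 3 for PM-L, 0 for zinc sulfate against saline, and 4 for zinc sulfate against MSH. The PM-HD frames include Kcnip3, which reached the signal limit only through the PM-HD hearts.

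Zinc sulfate against MSH, soluble zinc against zinc-free particles, was the comparison in which most members passed. These groups differ both in soluble zinc and in ash solids, so the parts of zinc and of ash in it cannot be told apart. Apart from zinc sulfate replicate 3, every zinc sulfate heart also had a lower Gapdh ratio than every MSH heart. Exposure and RNA quality are therefore not well separated in this comparison. Kcnh2, the pore of the rapid delayed rectifier, Kcnj12, an inward rectifier, Kcnc4, a fast-inactivating Kv channel, and Kcnv1, a silent subunit, were higher in zinc sulfate hearts. Kcnh4, a Kv channel of the ether-a-go-go group, Kcnj6, an inward rectifier gated by G proteins, Kcna6, a Kv channel, and Kcnk4, a two-pore channel, were lower. Thus 4 of 73 members rose, against 3.2% of all genes, and 4 fell, against 2.89%. Of the 33 expressed members 4 passed, where 5.8% of all expressed genes passed in either direction. The lowest adjusted p of a member was 0.550 (Kcnv1). Kcnv1 held without any 1 array but not without those of high atrial mean (0.68). It was dim, with mean signals of 32.5 in zinc sulfate and 10.85 in MSH hearts. Its log2 fold change ran from 0.42 to 1.68 over the alternatives. Kcna6 held in 3 of 8 fits that left out 1 array, and was lost with the Gapdh ratio as a covariate (−1.01) and with its probe sets averaged (−0.45). Kcnk4 held in 7 of 8, and was lost without the arrays of a Gapdh ratio above 3 (−1.18) and without those of high atrial mean (−0.99). Without zinc sulfate replicate 3, 13 members passed, and without the arrays of high atrial mean 4 did.

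Kcnh2 had signals of 293, 319.8, 280.0 and 312 in zinc sulfate hearts, against 210.4, 247, 169.5 and 239.7 in MSH hearts. All 4 zinc sulfate hearts lay above all 4 MSH hearts, and the zinc sulfate hearts were within a narrow range, 301 ± 18, against 217 ± 35.1 in MSH hearts (mean ± SD, n = 4 each). In Kcnh2, the log2 fold change was 0.59 (standard error 0.22, 95% confidence interval 0.13 to 1.06, unadjusted p = 0.0163, limma adjusted p = 0.577, exact permutation p = 0.0286). Saline hearts overlapped both groups, as signals were 232, 208, 365 and 274 in PM-HD hearts, 348, 244, 335 and 229 in PM-LD hearts, 289, 317, 250.5 and 258 in PM-L hearts, and 372, 349, 214 and 228 in saline hearts. Against saline, the log2 fold change of Kcnh2 was 0.19 for zinc sulfate and −0.41 for MSH, and neither passed. Without MSH replicate 3 the zinc sulfate to MSH difference was 0.51 and no longer passed (limma unadjusted p = 0.0503), as without the arrays of high atrial mean (0.51). Without saline replicate 3 or 4, Kcnh2 passed as lower in MSH than in saline hearts, at −0.54 and −0.55.

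Kcnj12 is under the limit of 100 in mean signal. It had signals of 171, 59.6, 120.0 and 124 in zinc sulfate hearts, against 37.6, 72.9, 70.5 and 52.3 in MSH hearts. One zinc sulfate heart, replicate 2, lay within the MSH range and the other 3 above it. Here the log2 fold change was 0.98 (standard error 0.34, 95% confidence interval 0.27 to 1.70, unadjusted p = 0.0104, limma adjusted p = 0.554, exact permutation p = 0.0857). Kcnj12 signals were 61.1, 82.3, 72.3 and 37.2 in PM-HD hearts, 50, 91.3, 27.2 and 70.9 in PM-LD hearts, 90.7, 18.3, 64.9 and 36 in PM-L hearts, and 82.9, 92, 98.6 and 40.5 in saline hearts, so that 3 zinc sulfate hearts were also the brightest of all 24. The call held without any 1 array but not without those of a Gapdh ratio above 3 (0.72), and the array design carries 1 probe set for this gene. Against saline, the value was 0.57 for zinc sulfate and missed the thresholds. It passed without zinc sulfate replicate 2 (0.80) or without the arrays of high atrial mean (0.90). Without saline replicate 4, Kcnj12 passed as lower in MSH (−0.71) and in PM-L hearts (−0.89), the second also without PM-L replicate 1 (−0.88).

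Kcnh4 had signals of 131, 118, 32 and 87.7 in zinc sulfate hearts, against 289, 174, 199 and 162 in MSH hearts. The groups did not overlap, and zinc sulfate replicate 3 was the lowest of all 24 hearts. In Kcnh4, the log2 fold change was −0.95 (standard error 0.32, 95% confidence interval −1.62 to −0.27, unadjusted p = 0.00961, limma adjusted p = 0.551, exact permutation p = 0.0286), and the call held without any 1 array but not without the 9 arrays of a Gapdh ratio above 3 (−0.47). The signals of the other groups were 125, 78.8, 111 and 168 in PM-HD hearts, 154, 249, 235 and 130.5 in PM-LD hearts, 193, 189, 306 and 229 in PM-L hearts, and 108, 138, 181 and 157 in saline hearts. PM-L hearts all lay above the saline hearts, with a log2 fold change of 0.57 that missed the p threshold (unadjusted p = 0.0702). Over the 6 groups, Kcnh4 had the lowest p of the family in the F test (unadjusted p = 0.00731, limma adjusted p = 0.881).

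Kcnj6 had signals of 25, 132, 155 and 63.5 in zinc sulfate hearts, against 199.6, 169, 159 and 202 in MSH hearts. No zinc sulfate heart reached the lowest MSH heart, and replicate 1 was far below the other zinc sulfate hearts. For Kcnj6, the log2 fold change was −0.89 (standard error 0.33, 95% confidence interval −1.60 to −0.18, unadjusted p = 0.017, limma adjusted p = 0.586, exact permutation p = 0.0286). Without zinc sulfate replicate 1 the difference was −0.50 and did not pass, and without the arrays of a Gapdh ratio above 3 it did not pass either (limma unadjusted p = 0.0617). The other groups had signals of 106, 99.9, 169.7 and 192 in PM-HD hearts, 148, 127, 73.2 and 121 in PM-LD hearts, 165, 131, 145 and 161 in PM-L hearts, and 148, 89.8, 134 and 186 in saline hearts. A further probe set of Kcnj6 with a mean signal of 121 gave −0.00442 in this comparison, so the difference was seen with 1 of the 2 expressed probe sets. A dim one fell with PM-HD (−1.14) and with zinc sulfate against saline (−1.15).

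Kcnc4 had signals of 124, 144, 263 and 115 in zinc sulfate hearts, against 179, 54.6, 108 and 104 in MSH hearts. The groups overlapped, with MSH replicate 2 the lowest and zinc sulfate replicate 3 the highest of all hearts. For Kcnc4, the log2 fold change was 0.67 (standard error 0.29, 95% confidence interval 0.04 to 1.29, unadjusted p = 0.0383, limma adjusted p = 0.659, exact permutation p = 0.0857). It did not pass without MSH replicate 2 (0.41), MSH replicate 4 (0.68), zinc sulfate replicate 2 (0.67), or zinc sulfate replicate 3 (0.49). The other groups had signals of 166, 92.7, 206 and 156 in PM-HD hearts, 155, 104, 149 and 158 in PM-LD hearts, 127, 139, 144 and 94.1 in PM-L hearts, and 104, 95.8, 130.1 and 258 in saline hearts, and none of their comparisons passed.

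**Figure D3:**
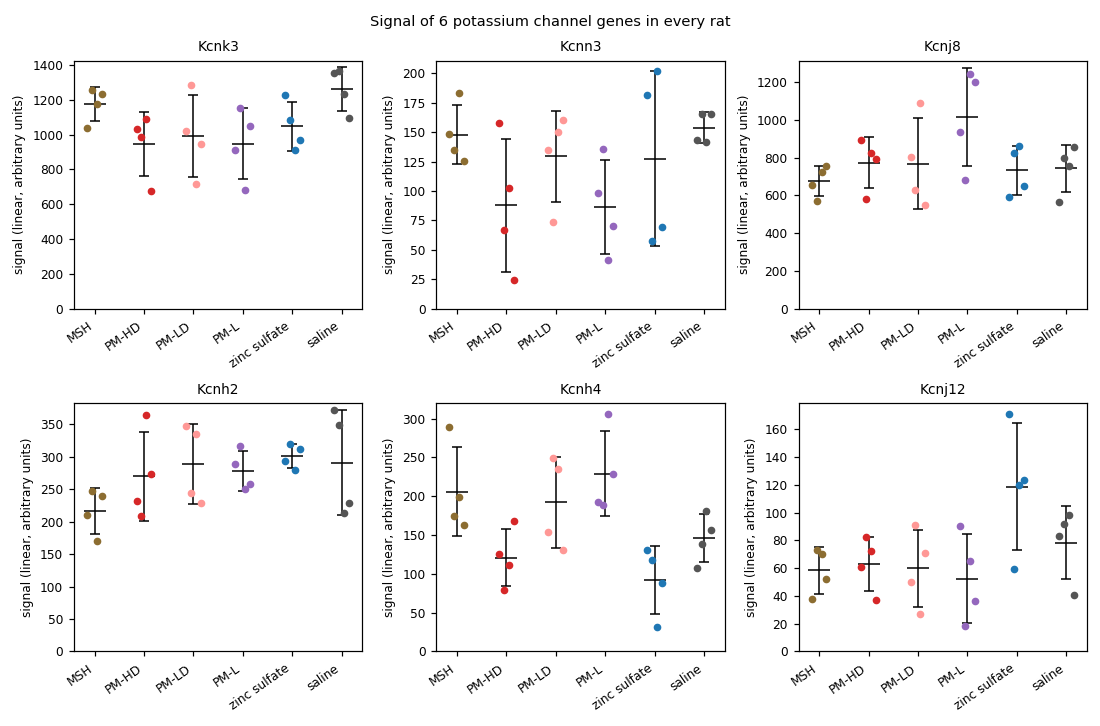
Points are single rats, horizontal bars the mean of 4 rats and error bars 1 standard deviation, on a linear signal axis from 0. Kcnh2 is higher in zinc sulfate (301 ± 18) than in MSH hearts (217 ± 35.1) without overlap, Kcnh4 is lower in zinc sulfate than in MSH hearts without overlap, and Kcnk3 is lower in PM-HD than in saline hearts without overlap.

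Kcnh4 and Kcnj6 are known mainly from neurons, and a marker of nerve moved in the same comparison: Th, an enzyme of sympathetic nerves, fell with zinc sulfate against MSH (log2 fold change −0.77), as 1 of 5 measured markers. The summed signal of those 5 was 229.7 to 437 in zinc sulfate and 334 to 550.2 in MSH hearts, 2 of the 5 were at or above 100, and Th averaged 78.1 ± 41.0 in zinc sulfate and 149 ± 14.5 in MSH hearts (SD, n = 4 each). Of the fibroblast markers Col3a1 and Dcn were lower (2 of 5), and of the smooth muscle markers Smtn was higher and Acta2 lower (2 of 5). The part of these cell types in the result was not tested.

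Kcnip2, the brightest member, was read by 3 probe sets that differed among themselves. The brightest had signals of 3799, 5074, 5273 and 3704 in MSH hearts, 5088, 9022, 4401 and 2486 in PM-HD hearts, and 7712, 8081, 3552 and 8969.6 in PM-LD hearts. It had 6374, 6806, 3888 and 4092 in PM-L hearts, 7006, 8968, 2610.4 and 8739 in zinc sulfate hearts, and 5635, 6726, 5187 and 4056 in saline hearts. All groups overlapped and no comparison passed, with log2 fold changes of −0.23 to 0.31 and a standard error of 0.35 or less. With PM-LD against saline, Kcnip2 did pass as higher without the arrays of a Gapdh ratio above 3 (0.47) and with its 3 probe sets averaged (0.64). For zinc sulfate against saline the value was 0.06 (95% confidence interval −0.68 to 0.81).

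The second probe set of Kcnip2 passed in 3 comparisons. Its signals were 522, 870.5, 383 and 1184 in zinc sulfate hearts, against 296, 266, 258 and 229 in MSH hearts. Every zinc sulfate heart exceeded every MSH heart. Here the log2 fold change was 1.37 (standard error 0.42, 95% confidence interval 0.48 to 2.26, unadjusted p = 0.00493, limma adjusted p = 0.502, exact permutation p = 0.0286), and the call held without any 1 array (1.11 to 1.67). Signals were 353, 661, 199 and 304 in PM-HD hearts, 469, 1448, 424 and 1839 in PM-LD hearts, 426, 1319, 511 and 395 in PM-L hearts, and 618, 293, 229 and 218 in saline hearts. PM-LD replicates 2 and 4, PM-L replicate 2, and zinc sulfate replicate 4 were the brightest hearts. Against saline it rose with PM-LD (1.41, limma adjusted p = 0.999) and with zinc sulfate (1.13, limma adjusted p = 0.999), with overlapping groups in both. The PM-LD call was lost without PM-LD replicate 4 (1.05), and the zinc sulfate call without saline replicate 4 (0.92) or zinc sulfate replicate 4 (0.86). This probe set fell with the Gapdh ratio over the 24 arrays (r = −0.68, rho = −0.72, permutation p = 0.00033 and 0.00012; r = −0.77 without the 2 arrays farthest from the median ratio), and the median ratio was 1.50 in zinc sulfate and 2.76 in MSH hearts. With the log2 ratio as a covariate, the difference was 1.13 against MSH and 1.04 for zinc sulfate against saline, and all 3 comparisons still passed. Without the 9 arrays of a ratio above 3 they passed too, at 1.64 for zinc sulfate against MSH, 1.56 for PM-LD, and 1.21 for zinc sulfate against saline. The zinc sulfate arrays then left had ratios of 1.49, 1.52 and 1.42, and the MSH arrays 2.36 and 2.02, still without overlap. Leaving out arrays therefore cannot separate RNA quality from exposure in zinc sulfate against MSH.

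The third probe set of Kcnip2 was dim, with a mean signal of 45.8. Its signals were 7.4, 28.3, 77.1 and 12.1 in zinc sulfate hearts, against 106, 91, 68.9 and 47.2 in MSH hearts. It ran the other way: the log2 fold change was −1.02 (standard error 0.40, 95% confidence interval −1.86 to −0.17, unadjusted p = 0.0213, limma adjusted p = 0.601, exact permutation p = 0.0857). This call was lost without MSH replicate 1 (−0.92) or 2 (−0.94), or zinc sulfate replicate 1 (−0.76) or 4 (−0.86). The remaining signals were 25.5, 3.4, 9.7 and 52.6 in PM-HD hearts, 20.7, 30.6, 99.5 and 32.6 in PM-LD hearts, 44.9, 82.9, 72.7 and 46.6 in PM-L hearts, and 34.9, 22.4, 49.6 and 32.6 in saline hearts. Over the 24 rats the brightest probe set correlated with the second (r = 0.67) and inversely with the third (r = −0.47), as a description of probe sets that share their arrays. Which part of the transcript each probe set reads was not analysed here, so a difference between transcript forms and a difference between probes cannot be told apart.

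Kcnj3, the other channel subunit of the acetylcholine-gated current beside Kcnj5, also had 3 probe sets. The brightest had signals of 428, 473, 239 and 221 in MSH hearts, 148, 410.0, 241 and 237 in PM-HD hearts, and 269.8, 575, 329.5 and 654 in PM-LD hearts. It had 144, 398, 185 and 209 in PM-L hearts, 385, 329.8, 289 and 341 in zinc sulfate hearts, and 299.9, 364, 315 and 304 in saline hearts. Zinc sulfate and saline hearts kept to a narrow band, and PM-LD and MSH hearts split into high and low animals. None of its comparisons passed, with log2 fold changes of −0.56 to 0.41. It passed when the brightest heart of a group was left out: without PM-HD replicate 2 it was −0.66 for PM-HD, and without PM-L replicate 2 it was −0.88 for PM-L, both against saline. Kcnj3 also passed with PM-L when the atrial mean was a covariate (−0.73) or its highest arrays were left out (−0.99).

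The second probe set of Kcnj3 had 422, 276, 206 and 245 in MSH hearts, 311, 248, 288 and 283 in PM-HD hearts, and 277, 234, 333 and 206 in PM-LD hearts. It had 216, 429.6, 343 and 52.5 in PM-L hearts, 228, 321, 94.9 and 354 in zinc sulfate hearts, and 53.6, 208, 153 and 406 in saline hearts. PM-L and saline hearts spread the widest. The third had 237, 215, 202 and 193 in MSH hearts, 176, 119.7, 353 and 315 in PM-HD hearts, and 314, 97.3, 290.3 and 285 in PM-LD hearts. It had 179, 242, 191 and 161 in PM-L hearts, 176, 220.5, 309 and 178 in zinc sulfate hearts, and 216, 213, 201 and 428 in saline hearts. Log2 fold changes were −0.16 to 0.65 for the second and −0.42 to 0.18 for the third, and none passed. The 3 probe sets hardly followed each other over the 24 rats (r = 0.02 to 0.20), so no single level of Kcnj3 could be given for a rat.

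**Figure D4:**
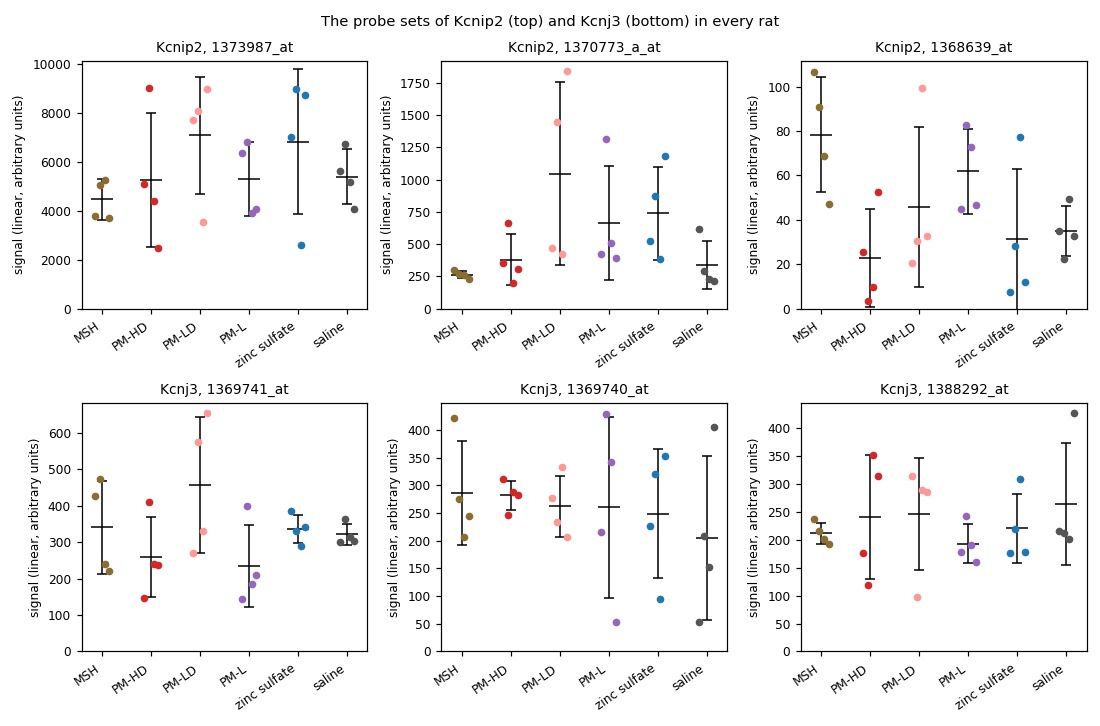
Points are single rats, horizontal bars the mean of 4 rats and error bars 1 standard deviation, on a linear signal axis that differs between panels. The top panels show the 3 probe sets of Kcnip2, of which the second is higher in all 4 zinc sulfate than in all 4 MSH hearts (log2 fold change 1.37), whereas the third overlaps between them (−1.02), and the bottom panels show the 3 probe sets of Kcnj3, none of which passed in any comparison.

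PM-HD, the high dose of particles with zinc, was compared with saline for the effect of the whole suspension. Kcnip3, an accessory subunit of Kv4 channels that also binds DNA, was higher, and Kcnk3 and Kcnn3 were lower. That is 1 of 73 members that rose, against 1.91% of all genes, and 2 that fell, against 1.41%. By their means over all arrays these 3 counted among the 33 expressed members, beside 2.39% of all expressed genes that passed. Kcnip3 reached the limit only through the PM-HD hearts, with a mean of 86.2 over the other 5 groups, so nothing is read from that count. The lowest adjusted p of a member was 0.999. The count depended on single rats: it was 8 without saline replicate 4 and 5 without PM-HD replicate 1.

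Kcnk3 had signals of 1033, 988, 1089.9 and 674 in PM-HD hearts, against 1356, 1366, 1235 and 1094 in saline hearts. The groups did not overlap, at 946 ± 186 in PM-HD and 1263 ± 128 in saline hearts. For Kcnk3, the log2 fold change was −0.44 (standard error 0.17, 95% confidence interval −0.79 to −0.08, unadjusted p = 0.0206, limma adjusted p = 0.999, exact permutation p = 0.0286). The log2 fold change lies at the edge of the threshold of −0.42, and the call was lost without PM-HD replicate 4 (−0.27), saline replicate 1 (−0.41), or saline replicate 2 (−0.40). PM-L hearts, with the leachable fraction, were also lower than saline hearts. Their signals were 914, 1153, 681 and 1049, 949 ± 204, and the log2 fold change was −0.43 (standard error 0.20, 95% confidence interval −0.84 to −0.02, unadjusted p = 0.0405, limma adjusted p = 0.999, exact permutation p = 0.0571). The PM-HD difference missed the fold threshold, though not that of p, with the Gapdh ratio as a covariate (−0.38, limma unadjusted p = 0.017) and without the arrays of a ratio above 3 (−0.37, limma unadjusted p = 0.0311), and the median ratio was 3.03 in PM-HD and 1.87 in saline hearts. The PM-L call was lost with median centering (−0.46), without the arrays of a Gapdh ratio above 3 (−0.33), and without PM-L replicate 1 (−0.43) or 3 (−0.26), or saline replicate 1 (−0.41), 2 (−0.39), or 3 (−0.44). The other groups had 1038, 1254, 1177 and 1237 in MSH hearts, 1022, 1286, 716 and 947 in PM-LD hearts, and 1230.1, 1085, 911 and 969.6 in zinc sulfate hearts, with log2 fold changes against saline of −0.08, −0.37, and −0.26 in that order, none of which passed. All 5 exposed groups thus had lower means than the same 4 saline hearts with this probe set. The other expressed probe set of Kcnk3 averaged 75.8 in PM-HD, 109 in PM-L, and 83.1 in saline hearts and passed in no comparison. A dim probe set of Kcnk3 was lower in both groups, like the brightest, with means of 20.7 in PM-HD, 22.7 in PM-L, and 48.5 in saline hearts. With the probe sets averaged, Kcnk3 was at −0.47 for PM-HD and −0.30 for PM-L and passed in neither.

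Kcnn3 had signals of 158, 66.8, 103 and 24.2 in PM-HD hearts, against 143, 165, 141 and 165 in saline hearts. One PM-HD heart lay within the saline range and 3 below it. For Kcnn3, the log2 fold change was −0.89 (standard error 0.39, 95% confidence interval −1.72 to −0.06, unadjusted p = 0.037, limma adjusted p = 0.999, exact permutation p = 0.0857). It was lost without PM-HD replicate 2 (−0.90) or 4 (−0.48), or saline replicate 1 (−0.87) or 2 (−0.83). PM-L hearts had signals of 98, 135, 41.4 and 70.1, all below the saline hearts, and the log2 fold change was −0.86 (standard error 0.40, 95% confidence interval −1.69 to −0.04, unadjusted p = 0.0415, limma adjusted p = 0.999, exact permutation p = 0.0857). It was lost without PM-L replicate 3 (−0.55) or 4 (−0.78), or saline replicate 1 (−0.84), 2 (−0.80), 3 (−0.91), or 4 (−0.90). Without the arrays of a Gapdh ratio above 3, Kcnn3 was at −0.45 with PM-HD and −0.32 with PM-L, and neither passed. Kcnn3 signals were 149, 135, 183 and 125 in MSH hearts, 135, 73.3, 149.8 and 160.1 in PM-LD hearts, and 181, 57.3, 202 and 69.4 in zinc sulfate hearts, and the zinc sulfate hearts split into a bright and a dim pair. Stmn2, a neuronal marker, fell in the same 2 comparisons (−1.04 with PM-HD and −0.84 with PM-L, 1 of 5 nerve markers in each), and the summed nerve markers were 363 to 408 in PM-HD, 418 to 678 in PM-L, and 382 to 653 in saline hearts. Its part in the result was not tested.

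Kcnip3 had signals of 96.6, 59.7, 272 and 255 in PM-HD hearts, against 62.9, 51.2, 42.8 and 100.2 in saline hearts. PM-HD replicates 3 and 4 were the brightest hearts of the array set and the other PM-HD hearts lay within the saline range. Here the log2 fold change was 1.06 (standard error 0.41, 95% confidence interval 0.19 to 1.94, unadjusted p = 0.0204, limma adjusted p = 0.999, exact permutation p = 0.0857). It did not pass without PM-HD replicate 3 (0.81), PM-HD replicate 4 (0.84), or saline replicate 3 (0.92), nor without the arrays of a Gapdh ratio above 3 (0.48). Kcnip3 had 59.3, 142, 63.9 and 81.3 in MSH hearts, 57.8, 40.7, 68.1 and 69.7 in PM-LD hearts, 100.2, 38.7, 91 and 211 in PM-L hearts, and 40, 133, 133 and 137 in zinc sulfate hearts. A dimmer probe set of Kcnip3 gave 0.08 for PM-HD against saline.

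PM-L, the leachable fraction, had the second largest count. Kcnj8, the pore of the vascular ATP-sensitive channel, was higher, as was dim Kcnn4, and Kcnk3, Kcnn3, and the dim Kcnc2 and Kcnk9 were lower. That is 2 of 73 that rose, against 2.18% of all genes, and 4 that fell, against 1.67%. Of the 33 expressed members 3 passed, against 3.12% of all expressed genes, and the lowest adjusted p was 0.821 (Kcnc2). Kcnc2 held without any 1 array but not with its probe sets averaged (0.0024), and Kcnn4 and Kcnk9 each held in 4 of 8 fits that left out 1 array. The count was 10 without PM-L replicate 2, 3 without PM-L replicate 3, and 2 without saline replicate 3.

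Kcnj8 had signals of 937, 681, 1243 and 1202 in PM-L hearts, against 564, 799.9, 755 and 854 in saline hearts. PM-L replicates 1, 3, and 4 exceeded every saline heart and replicate 2 did not. For Kcnj8, the log2 fold change was 0.45 (standard error 0.21, 95% confidence interval 0.00 to 0.89, unadjusted p = 0.048, limma adjusted p = 0.999, exact permutation p = 0.143). It was lost without PM-L replicate 1 (0.48), 3 (0.34), or 4 (0.36), or saline replicate 1 (0.32), 2 (0.49), or 3 (0.46). Kcnj8 had 653, 571, 725 and 754 in MSH hearts, 891, 578, 826 and 793 in PM-HD hearts, 805, 626, 1092 and 551 in PM-LD hearts, and 591, 826, 862 and 652 in zinc sulfate hearts, with no comparison passed. Kcnj8 rose with the Gapdh ratio over the 24 arrays, and without the arrays of a ratio above 3 the difference was 0.21 and did not pass. Nppa, an atrial marker, was higher in PM-L than in saline hearts (log2 fold change 1.41, 1 of 4 atrial markers), and the summed atrial markers were 4582 to 43218 in PM-L and 2667 to 24938 in saline hearts. Its part in the result was not tested.

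MSH, the zinc-free ash, was compared with saline for the effect of particles alone. Kcnip4, an accessory subunit, and Kcnn4, a calcium-activated channel, were higher, and Kcnk9, a two-pore channel, and Kcnv1 were lower, all of them members below the signal limit. That is 2 of 73 that rose, against 1.53% of all genes, and 2 that fell, against 1.46%. Of the 33 expressed members 0 passed, where 2.18% of all expressed genes did, with log2 fold changes from −0.43 to 0.60. Kcnk9 had the lowest adjusted p (0.698), with signals of 41.7, 62.3, 46.3 and 30.7 in MSH hearts, against 106, 80.7, 87 and 189.7 in saline hearts. No MSH heart reached the lowest saline heart. Its log2 fold change was −1.15 (limma adjusted p = 0.698, exact permutation p = 0.0286). It held without any 1 array but not without those of a Gapdh ratio above 3 (−0.75). Kcnv1 was dim, with signals of 8.2, 22.3, 6.1 and 6.8 in MSH hearts, against 30.4, 66.4, 53 and 38.8 in saline hearts. Most of these MSH signals lay below the 16 added to every signal. Its log2 fold change ran from −2.21 to −0.57 over the alternatives, and the call also held without any 1 array. Kcnn4 held in 2 of 8 such fits and was lost with the Gapdh ratio as a covariate (1.02) and without the arrays of a ratio above 3 (0.90). Kcnip4 held in 4 of 8 and was lost without the arrays of a ratio above 3 (1.06). Without saline replicate 4, 8 members passed.

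Zinc sulfate against saline gave no higher member. Kcnk9, Kcnj16, an inward rectifier that joins other subunits, and Kcnc2, a Kv channel, were lower, all below the signal limit. That is 0 of 73 that rose, against 2.08% of all genes, and 3 that fell, against 1.94%. Of the 33 expressed members 0 passed, against 2.94% of all expressed genes, and their log2 fold changes ran from −0.57 to 0.70. Kcnj16 had signals of 42.5, 11.1, 10.6 and 5.2 in zinc sulfate hearts, against 47.9, 53.4, 62.3 and 58.3 in saline hearts. The groups did not overlap, and the log2 fold change was −1.14 (standard error 0.37, 95% confidence interval −1.92 to −0.36, unadjusted p = 0.00712, limma adjusted p = 0.997, exact permutation p = 0.0286). Kcnk9 had 21.6, 69.5, 63.9 and 48.7 in zinc sulfate hearts, again below every saline heart. The calls of Kcnj16 and Kcnk9 held without any 1 array, whereas that of Kcnc2 held in 3 of 8 such fits. With a gene's probe sets averaged, Kcnj16 was at −0.39 and Kcnc2 at −0.17, and neither passed. The other probe set of Kcnj16 averaged 30.3 in zinc sulfate and 19.8 in saline hearts, a log2 fold change of 0.35 that missed the thresholds. Without zinc sulfate replicate 1 or 2 the count was 6 each.

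PM-LD had the lowest count. Kcnj10, an inward rectifier, rose and Kcne2, an accessory subunit, fell, both below the signal limit. The Kcnj10 call held in 6 of 8 fits that left out 1 array. That is 1 of 73 in each direction, against 1.79% of all genes that rose and 1.76% that fell. Of the 33 expressed members 0 passed, against 2.69% of all expressed genes. Kcne2 had signals of 47.1, 34.5, 58.5 and 108 in PM-LD hearts, against 109.5, 114, 130.2 and 123 in saline hearts. The saline hearts kept to 109.5 to 130.2 and all PM-LD hearts lay below them, with a log2 fold change of −0.84 that was lost without any 1 of PM-LD replicates 1 to 3 (−0.75, −0.72, and −0.78) and of saline replicates 1 to 3 (−0.81, −0.83, and −0.82). The count was 5 without saline replicate 4, 4 without PM-LD replicate 4, and 1 without saline replicate 3.

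Over all 6 groups, 4 of 73 members had an F test p under 0.05, where 4.43% of all genes did: Kcnh4, and the dim Kcnc2, Kcnj16, and Kcnk9. The lowest adjusted p was 0.881. The count was 7 without PM-HD replicate 2 and 2 without saline replicate 3. The median log2 fold change over the 33 expressed members was 0.02 for MSH, 0.01 for PM-HD, 0.00 for PM-LD, 0.04 for PM-L, and 0.05 for zinc sulfate against saline, and −0.02 for zinc sulfate against MSH. Over all genes it lay between −0.02 and 0.00 in the 6 comparisons. The main expressed cardiac channels outside the genes named as passing were Kcnd2, Kcnd3, Kcnq1, Kcna5, Kcnj4, Kcnj5, and Kcnj11. These passed in no comparison with their brightest probe sets. Their log2 fold changes were −0.05 to 0.21 for Kcnd2, −0.43 to 0.49 for Kcnd3, −0.06 to 0.20 for Kcnq1, and −0.55 to 0.18 for Kcna5. They were −0.19 to 0.04 for Kcnj4, −0.30 to 0.37 for Kcnj5, and −0.16 to 0.25 for Kcnj11. Kcnj2 and Kcne1, both under the signal limit, passed in no comparison either. Group means of Kcnj2 were less even, at 104 in MSH, 118 in PM-HD, 59 in PM-LD, 103 in PM-L, 68.4 in zinc sulfate, and 113 in saline hearts.

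Further probe sets of the members gave other calls. There were 35, of which 9 were expressed, and 14 passed in at least 1 comparison, 3 of them expressed: the second probe set of Kcnip2, and one each of Kcnd2 and Kcnj11. The matching share over all further probe sets of the array was not computed, so nothing is read from these counts. That of Kcnd2, the pore of the transient outward channel, had signals of 327, 417, 334 and 417 in PM-LD hearts, against 225, 278, 220.4 and 187 in saline hearts. In zinc sulfate hearts it had 369, 312, 329 and 495. All hearts of both groups lay above all saline hearts. For zinc sulfate against saline the log2 fold change was 0.75 (standard error 0.25, 95% confidence interval 0.23 to 1.28, unadjusted p = 0.00815, limma adjusted p = 0.997, exact permutation p = 0.0286), and the call held without any 1 array. For PM-LD against saline the log2 fold change was 0.72 (standard error 0.27, 95% confidence interval 0.17 to 1.27, unadjusted p = 0.0131, limma adjusted p = 0.999, exact permutation p = 0.0286), and the call was lost without saline replicate 4 (0.57). The remaining signals were 227, 361, 254 and 288 in MSH hearts, 385, 280.3, 190.5 and 281 in PM-HD hearts, and 293, 349, 186 and 222 in PM-L hearts, and no comparison of these groups passed. The brightest probe set of Kcnd2 gave −0.05 for zinc sulfate and 0.21 for PM-LD against saline, and neither of these passed.

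A dim probe set of Kcnd3 fell with MSH against saline (−1.25, limma adjusted p = 1), a call lost without saline replicate 1 (−1.02) or 3 (−1.02). It rose with zinc sulfate against MSH (1.50, limma adjusted p = 0.502) and held there without any 1 array. With zinc sulfate against MSH, further probe sets of Kcnj11 (0.79) and Kcnj5 (0.91) rose too. The Kcnj11 call was lost without MSH replicate 4 (0.76), zinc sulfate replicate 2 (0.67), or zinc sulfate replicate 4 (0.63), and the Kcnj5 call without the arrays of a Gapdh ratio above 3 (0.74).

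Many members followed the Gapdh ratio from rat to rat. Over the 24 arrays, 15 of the 33 expressed members correlated with the log2 ratio at an adjusted permutation p under 0.05, 8 inversely and 7 directly. The smallest p that 100000 arrangements can give is 1e-05. Kcnip2 had Pearson's r = −0.84 and Spearman's rho = −0.85 (permutation p = 1e-05 and 2e-05, adjusted over the 33 genes 0.00022 and 0.00022), r = −0.84 without the 2 arrays farthest from the median ratio, and r = −0.84 after each group's mean was removed. Kcng2 had Pearson's r = −0.75 and Spearman's rho = −0.78 (permutation p = 3e-05 and 3e-05, adjusted over the 33 genes 0.00022 and 0.000248), r = −0.76 without the 2 arrays farthest from the median ratio, and r = −0.75 after each group's mean was removed. Kcnq1, of the slow delayed rectifier, had Pearson's r = −0.77 and Spearman's rho = −0.77 (permutation p = 2e-05 and 2e-05, adjusted over the 33 genes 0.00022 and 0.00022), r = −0.74 without the 2 arrays farthest from the median ratio, and r = −0.79 after each group's mean was removed. Kcnj5, of the acetylcholine-gated current, had Pearson's r = −0.77 and Spearman's rho = −0.78 (permutation p = 4e-05 and 2e-05, adjusted over the 33 genes 0.00022 and 0.00022), r = −0.76 without the 2 arrays farthest from the median ratio, and r = −0.76 after each group's mean was removed. Signals of these 4 were thus lower in hearts whose RNA gave a higher ratio.

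Other members rose with the ratio. Kcna5 had Pearson's r = 0.78 and Spearman's rho = 0.76 (permutation p = 2e-05 and 9e-05, adjusted over the 33 genes 0.00022 and 0.000495), r = 0.71 without the 2 arrays farthest from the median ratio, and r = 0.82 after each group's mean was removed. Kcns3, a silent subunit, had Pearson's r = 0.74 and Spearman's rho = 0.68 (permutation p = 4e-05 and 0.00048, adjusted over the 33 genes 0.00022 and 0.00226), r = 0.75 without the 2 arrays farthest from the median ratio, and r = 0.75 after each group's mean was removed. Both had higher signals in hearts with a higher ratio. Kcnk2 (r = −0.70), Kcnj11 (−0.61), Kcnk3 (−0.56), and Kcnj3 (−0.55) were further members with an inverse relation, although the other 2 probe sets of Kcnj3 gave r = −0.06 and 0.29, and Kcnmb4 (0.64), Kcnab1 (0.59), and Kcnj8 (0.57) with a direct one. In Kcnk3 the rank correlation did not pass (adjusted p = 0.134). The relation was common on the array: the size of r was above 0.5 in 39.4% of the expressed members and 47.2% of all expressed genes. None of the 33 expressed members correlated with the atrial mean at an adjusted permutation p under 0.05.

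**Figure D5:**
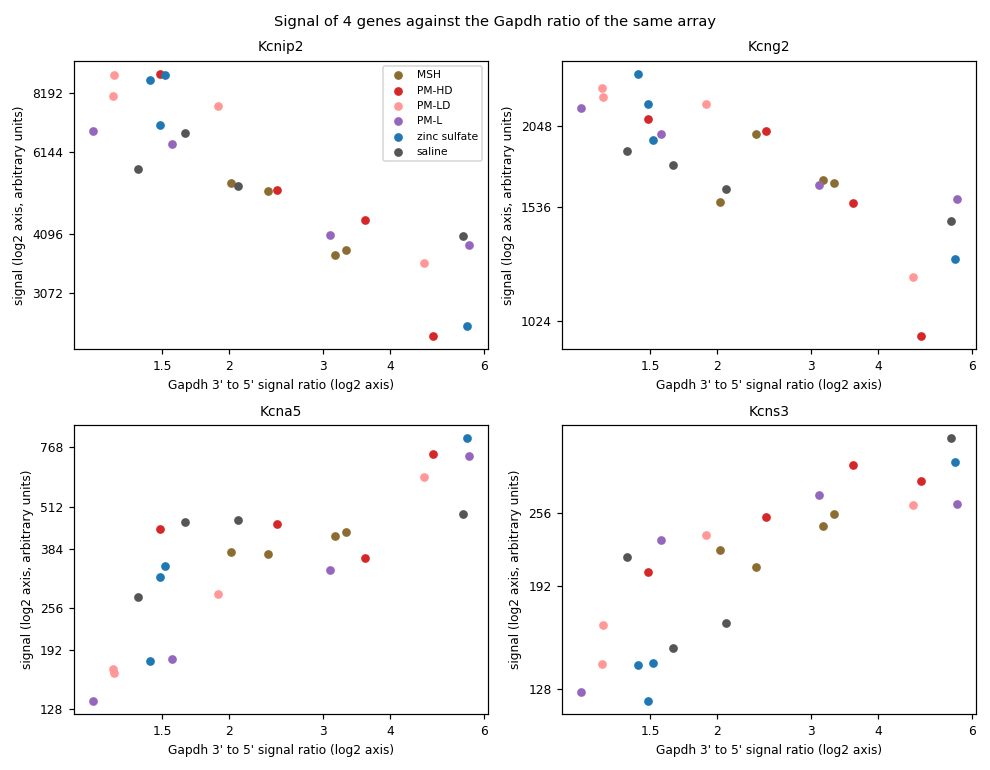
Each point is 1 of 24 rats, with the Gapdh 3′ to 5′ signal ratio of its array on the x axis and the signal of the gene on the y axis (both log2 axes), colored by group. Kcnip2 (r = −0.84) and Kcng2 (r = −0.75) fall and Kcna5 (r = 0.78) and Kcns3 (r = 0.74) rise with the ratio. MSH hearts keep to ratios of 2.02 to 3.31, a narrower range than in any other group.

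Among the bright members, Kcnip2 and Kcng2 followed each other from rat to rat (r = 0.82), as did Kcng2 and Kcnj11 (r = 0.75) and Kcnip2 and Kcnj11 (r = 0.73), whereas Kcna5 ran against Kcnip2 (r = −0.66) and Kcng2 (r = −0.73). These values share arrays, and all of these genes correlated with the Gapdh ratio of those arrays. Probe sets of one gene agreed to differing degrees over the 24 rats: r was 0.59 to 0.75 among the 3 of Kcnj11, 0.51 to 0.68 among the 3 of Kcng2, and 0.09 to 0.32 among the 3 of Kcnk3.

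Genes outside the family that act on potassium currents were taken from a list of 36, of which 26 were measured. With PM-L, Atp1b2, a subunit of the sodium pump, was higher (log2 fold change 0.86), as it was with zinc sulfate against MSH (0.88). Chrm2, the muscarinic receptor that opens the Kcnj3 and Kcnj5 channel, had signals of 80.5 ± 34.2 in zinc sulfate, 172 ± 29.9 in MSH, and 184 ± 95.4 in saline hearts, lower by log2 fold changes of −0.84 against MSH and −0.94 against saline. Sgk1, a kinase that regulates channels at the membrane, was lower with zinc sulfate against saline (−0.94). None of these reached an adjusted p under 0.05 (0.565 or more in limma), and no member of the list passed with MSH, PM-HD, or PM-LD against saline.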

How the data were processed

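Total heart RNA of 24 rats was hybridized to Affymetrix Rat 230A arrays. The deposited values are signal intensities computed by the authors with MAS5 (Microarray Suite, version not given in the labels), on a linear scale with every array scaled to the same trimmed mean; the tests of the study used other values of these arrays, which were not used here. Control probe sets were left out, and 15866 were tested. Signals were transformed as log2(signal + 16) and quantile-normalized, so a fold change is on that scale and understates changes of dim genes. Linear models (limma 3.58.1 in R 4.3.3) were fitted to the 16 arrays from rats treated for 8 weeks and to all 24 arrays for PM-LD, PM-L, and the F test. A gene passed at an unadjusted p under 0.05 where its fold was above 1.25 or else below 0.75, with Benjamini-Hochberg adjustment over all probe sets tested. Permutation tests of correlations drew 100000 arrangements. The procedure was tested on simulated data. The number of arrays limits the precision, and p-values set a difference against the spread between these rats.

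Named with each rat's value were all probe sets of Kcnj3, Kcnj12, Kcnh2, and Kcnip2 and every expressed member that passed the thresholds. Kcnk9, Kcnj16, and Kcne2, below the signal limit, and further probe sets of Kcnd2, Kcnd3, Kcnj5, and Kcnj11 were added after their values were seen. The members and lists were chosen with earlier results of these data known. Gene symbols came from the platform annotation, in which 12783 probe sets had 1 symbol, 312 several, and 2771 none. Replicate numbers were taken from the labels and did not pair the rats. Alternatives were other pseudocounts, median centering, a signal filter, the average over a gene's probe sets, the replicate block, the Gapdh ratio or atrial mean as a covariate, arrays left out, and other sets of arrays in the fit.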

Additional observations from a re-analysis of the deposited data

Results flagged for a closer look

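In 6 of the 90 groups of 4 rats examined (15 probe sets), 1 rat stood apart from the other 3 by more than Dixon's limit for 4 values; chance alone gives about 1 in 20 groups. For Kcnip2, the second-brightest probe set had 1319.1 in PM-L replicate 2, where the lowest PM-L heart had 395.2, and the dimmest had 99.5 in PM-LD replicate 3, where the lowest had 20.7. For Kcnj3, the dimmest probe set had 97.3 in PM-LD replicate 2, where the highest PM-LD heart had 314.3, and 428.5 in saline replicate 4, where the lowest saline heart had 201.1. Kcnip3 had 40.0 in zinc sulfate replicate 1, where the highest zinc sulfate heart had 137.2. Kcnc4 had 104.0 in PM-LD replicate 2, where the highest had 157.8.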

How the results depend on the processing

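The number of members that passed was the most dependent on which arrays entered. The share of all genes that passed was not counted under these settings. Whether the counts below moved with the whole array or in the family alone is therefore not known. Leaving out 1 array at a time gave 3 to 8 members for MSH, 2 to 8 for PM-HD, 1 to 5 for PM-LD, 2 to 10 for PM-L, and 2 to 6 for zinc sulfate, each against saline, 7 to 13 for zinc sulfate against MSH, and 2 to 7 for the F test. With a pseudocount of 64 the F test gave 2. With only probe sets of mean signal 100 or more, which removes the dim members, the counts were 0 for MSH, 0 for PM-LD, 3 for PM-L, 0 for zinc sulfate, 4 for zinc sulfate against MSH, and 1 for the F test. With the Gapdh ratio as a covariate they were 1 for PM-HD, 4 for PM-LD, 5 for zinc sulfate, and 7 for the F test, and without the arrays of a ratio above 3, 8 for PM-HD, 8 for PM-LD, 7 for zinc sulfate, and 9 for the F test. With the atrial mean as a covariate they were 7 for MSH and 5 for PM-HD, and without the arrays of an atrial mean above 11, 1 for PM-LD and 4 for zinc sulfate against MSH. With all 24 arrays in 1 fit, zinc sulfate against saline gave 5. Other counts stayed within 1.5 times. The cause was not tested.

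Same-numbered rats did not deviate together (r = −0.20 to 0.20 over 24 pairs, 6 above 0.1), so the numbers give no pairing. With the replicate block, 4 members passed for MSH, 3 for PM-HD, 3 for PM-LD, 8 for PM-L, 3 for zinc sulfate, 8 for zinc sulfate against MSH, and 5 for the F test.

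Values that changed sign were those of genes that had not passed, except Kcnc2. With a gene's probe sets averaged, the log2 fold change was 0.11 for Kcnip2 and 0.0905 for Kcnj3 with MSH, 0.0243 for Kcnj3 with PM-HD, 0.48 for Kcnip2 with PM-L, and 0.0024 for Kcnc2 with PM-L. With the Gapdh ratio as a covariate it was 0.0357 for Kcnj3 with MSH, 0.0588 for Kcnip2 with PM-HD, 0.0194 for Kcnip2 with PM-L, and −0.0107 for Kcnip2 with zinc sulfate. Without the arrays of a ratio above 3 it was 0.27 for Kcnip2 with PM-HD, −0.0792 for Kcnh2 with PM-LD, 0.0568 for Kcnh2 with PM-L, and 0.12 for Kcnip2 with PM-L. Without the arrays of an atrial mean above 11 it was 0.0762 for Kcnh2 with PM-HD, 0.0266 for Kcnh2 with PM-L, 0.0616 for Kcnj12 with PM-L, and −0.0939 for Kcnip2 with zinc sulfate. Leaving out 1 array gave −0.20 to 0.16 for Kcnj3 with MSH and −0.0229 to 0.33 with zinc sulfate against MSH. It gave −0.43 to 0.16 for Kcnip2 with PM-HD, −0.0971 to 0.0761 with PM-L, and −0.11 to 0.41 with zinc sulfate. It gave −0.22 to 0.0762 for Kcnh2 with PM-HD, −0.0626 to 0.24 with PM-LD, and −0.18 to 0.11 with PM-L.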
